A study of Mus musculus with 6 samples.

Results

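The Hox genes are the transcription factor genes that lie in the HoxA, HoxB, HoxC and HoxD clusters. Their members on these arrays were taken as every probe set whose annotated symbol starts with Hoxa, Hoxb, Hoxc or Hoxd followed by a number, which gave 41 of 22626 probe sets. The choice used names only, not signals. These probe sets named 32 symbols on their own, 31 of the 39 protein-coding Hox genes of RefSeq and Hoxa11os, a long noncoding RNA transcribed antisense to Hoxa11. A further 3 genes, Hoxb8, Hoxd3 and Hoxd4, appeared only on probe sets that also name a neighbouring Hox gene.

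Gene expression was measured on 6 Affymetrix mouse expression arrays with RNA from cultured mesenchymal cells of the urogenital sinus, the embryonic tissue from which the prostate forms. The cells came from male CD-1 fetuses on gestation day 17, were used at the first passage after the epithelial cells had been removed by settling, and were kept without estrogen for 3 days. All cells, the controls included, received 690 pM of the androgen dihydrotestosterone (DHT). Control cells (3 arrays) received ethanol vehicle and E2 cells (3 arrays) received 100 nM 17β-estradiol (E2) for 4 days. The comparison asked which transcripts a high estrogen dose changes in cells that already see an androgen. CD-1 is an outbred stock, and nothing in the sources used here ties an array to a single fetus, so p-values measure the spread between these arrays, which may in part be technical. The number of arrays limits the precision.

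Hox proteins bind DNA through a homeodomain, and the order of the genes along a cluster matches the order in which they are used from the head end to the tail end of the embryo. Genes at the same place in different clusters are called paralogs and carry the same number. The anterior genes (paralogs 1 to 3) pattern the hindbrain and neck, the central genes (4 to 8) the trunk, and the posterior genes (9 to 13) the lower trunk, the distal limb, the hindgut and the urogenital tract. Posterior genes such as Hoxa10, Hoxa13 and Hoxd13 are known for their part in the growth and branching of the prostate and seminal vesicle. Hox proteins bind with cofactors of the TALE class (Meis, Pbx and Pknox proteins), Polycomb proteins keep the clusters silent, and trithorax proteins keep them active.

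The promoter sequences of 2 pairs of genes of one cluster whose E2 differences took opposite signs (Hoxd10 and Hoxd8, Hoxa11 and Hoxa5) and of Hoxd9, which lies between the first pair, are shown first, since the results below turn on these genes. Other HoxA genes lie between Hoxa11 and Hoxa5. Each is a RefSeq promoter window of the mouse build GRCm38.p6, 300 bases long and read 5′ to 3′ on the strand of the gene, with the annotated start at base 251. Capitals mark GGTCA or its reverse complement TGACC, the core letters of the estrogen response element. Hoxd10 lies at chr2:74691641-74691940 on the plus strand, with a match at base 182. The window of Hoxd9, its neighbour, at chr2:74697513-74697812 on the plus strand has none. Hoxd8, next in the row, lies at chr2:74704365-74704664 on the plus strand, with a match at base 117. Hoxa11 lies at chr6:52245761-52246060 on the minus strand and has matches at bases 187 and 194, which face each other with 2 bases between them. Hoxa5, at chr6:52204538-52204837 on the minus strand, has its match at base 293, past the start.
Hoxd10: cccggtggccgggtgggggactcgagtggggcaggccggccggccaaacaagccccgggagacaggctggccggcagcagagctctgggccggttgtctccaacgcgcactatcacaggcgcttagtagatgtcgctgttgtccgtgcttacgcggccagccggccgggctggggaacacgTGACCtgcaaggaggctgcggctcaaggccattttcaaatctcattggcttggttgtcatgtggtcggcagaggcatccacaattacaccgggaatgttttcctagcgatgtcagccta
Hoxd9: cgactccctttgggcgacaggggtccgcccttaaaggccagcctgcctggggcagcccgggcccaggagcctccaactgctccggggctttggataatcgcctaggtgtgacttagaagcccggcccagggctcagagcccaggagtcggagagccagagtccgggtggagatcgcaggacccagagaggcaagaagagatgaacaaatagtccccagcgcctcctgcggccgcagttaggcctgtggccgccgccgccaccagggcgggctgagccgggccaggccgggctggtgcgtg
Hoxd8: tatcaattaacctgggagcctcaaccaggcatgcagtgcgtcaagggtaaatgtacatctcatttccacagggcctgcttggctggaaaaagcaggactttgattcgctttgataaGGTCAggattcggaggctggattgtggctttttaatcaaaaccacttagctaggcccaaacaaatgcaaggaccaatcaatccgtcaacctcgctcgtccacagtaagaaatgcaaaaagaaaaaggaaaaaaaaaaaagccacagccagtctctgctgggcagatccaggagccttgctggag
Hoxa11: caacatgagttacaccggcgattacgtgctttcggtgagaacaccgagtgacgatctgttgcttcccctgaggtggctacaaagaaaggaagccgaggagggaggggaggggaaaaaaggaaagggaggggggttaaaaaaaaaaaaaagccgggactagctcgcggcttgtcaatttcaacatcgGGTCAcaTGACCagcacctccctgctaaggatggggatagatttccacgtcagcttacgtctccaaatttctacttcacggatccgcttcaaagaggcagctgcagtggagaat
Hoxa5: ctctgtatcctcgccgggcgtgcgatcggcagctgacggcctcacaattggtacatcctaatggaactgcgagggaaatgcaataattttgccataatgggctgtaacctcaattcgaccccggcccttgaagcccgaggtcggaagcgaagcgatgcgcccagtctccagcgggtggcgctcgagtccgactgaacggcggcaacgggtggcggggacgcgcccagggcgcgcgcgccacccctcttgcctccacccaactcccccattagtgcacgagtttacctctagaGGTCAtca

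The RefSeq table held 24 promoter windows for 22 of the Hox genes. GGTCA on either strand was in 12 of the 24 Hox windows (50%) and in 40.5% of the 32841 windows of all genes. The full palindrome, GGTCA and TGACC with 3 bases between them, was in 0 of the 24 Hox windows and in 0.07% of all windows. TAATTA, a core that many homeodomains bind, was in 2 Hox windows (8.33%, against 5.29% of all), TGATNNAT, a composite Hox and Pbx motif, in 4 (16.7%, against 8.85%), and TTTATG, a motif of the Cdx factors that act upstream of Hox genes, in 5 (20.8%, against 11.9%). All were searched on both strands. The Hox windows were richer in G and C, with a median of 57.7% against 52.7% over all windows, and held more CpG pairs for their base composition, with a median observed to expected ratio of 0.626 against 0.384. These matches are matches of letters, and no binding was measured here.

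The Hox probe sets with a measurable signal in these cells lay mainly in the posterior part of HoxA and in HoxD. After the arrays were scaled to a common median, 14 of the 41 Hox probe sets reached 10 signal units on all 6 arrays, the level below which the study discarded genes, and 14 others reached it on no array. The 14 measured on all arrays were 34.1% of the Hox probe sets, against 51.03% of all probe sets. They comprised 7 of 13 probe sets in HoxA, 2 of 11 in HoxB, 1 of 8 in HoxC and 4 of 9 in HoxD. By place in the cluster they comprised 1 of 7 anterior, 4 of 17 central and 9 of 15 posterior probe sets. All 6 posterior HoxA probe sets (Hoxa9 by 2 probe sets, Hoxa10, Hoxa11, Hoxa11os and Hoxa13) and 3 of the 5 posterior HoxD ones (Hoxd9, Hoxd10 and Hoxd13) were among them, whereas 0 of 2 in HoxB and 0 of 2 in HoxC were. The central and anterior members were Hoxa5, Hoxb2, Hoxb4, Hoxc6 and Hoxd8. Signals of different probe sets depend on the probes, so they give no ratio of transcript levels between genes, and a probe set below 10 units does not show that its gene was off. With 20 units as the level, 6 probe sets remained in place of 14. These were Hoxa11, Hoxa11os, Hoxa10, Hoxa9 by 1455626_at, Hoxa5 and Hoxd8, so the posterior HoxD probe sets were no longer among them.

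**Figure D1:**
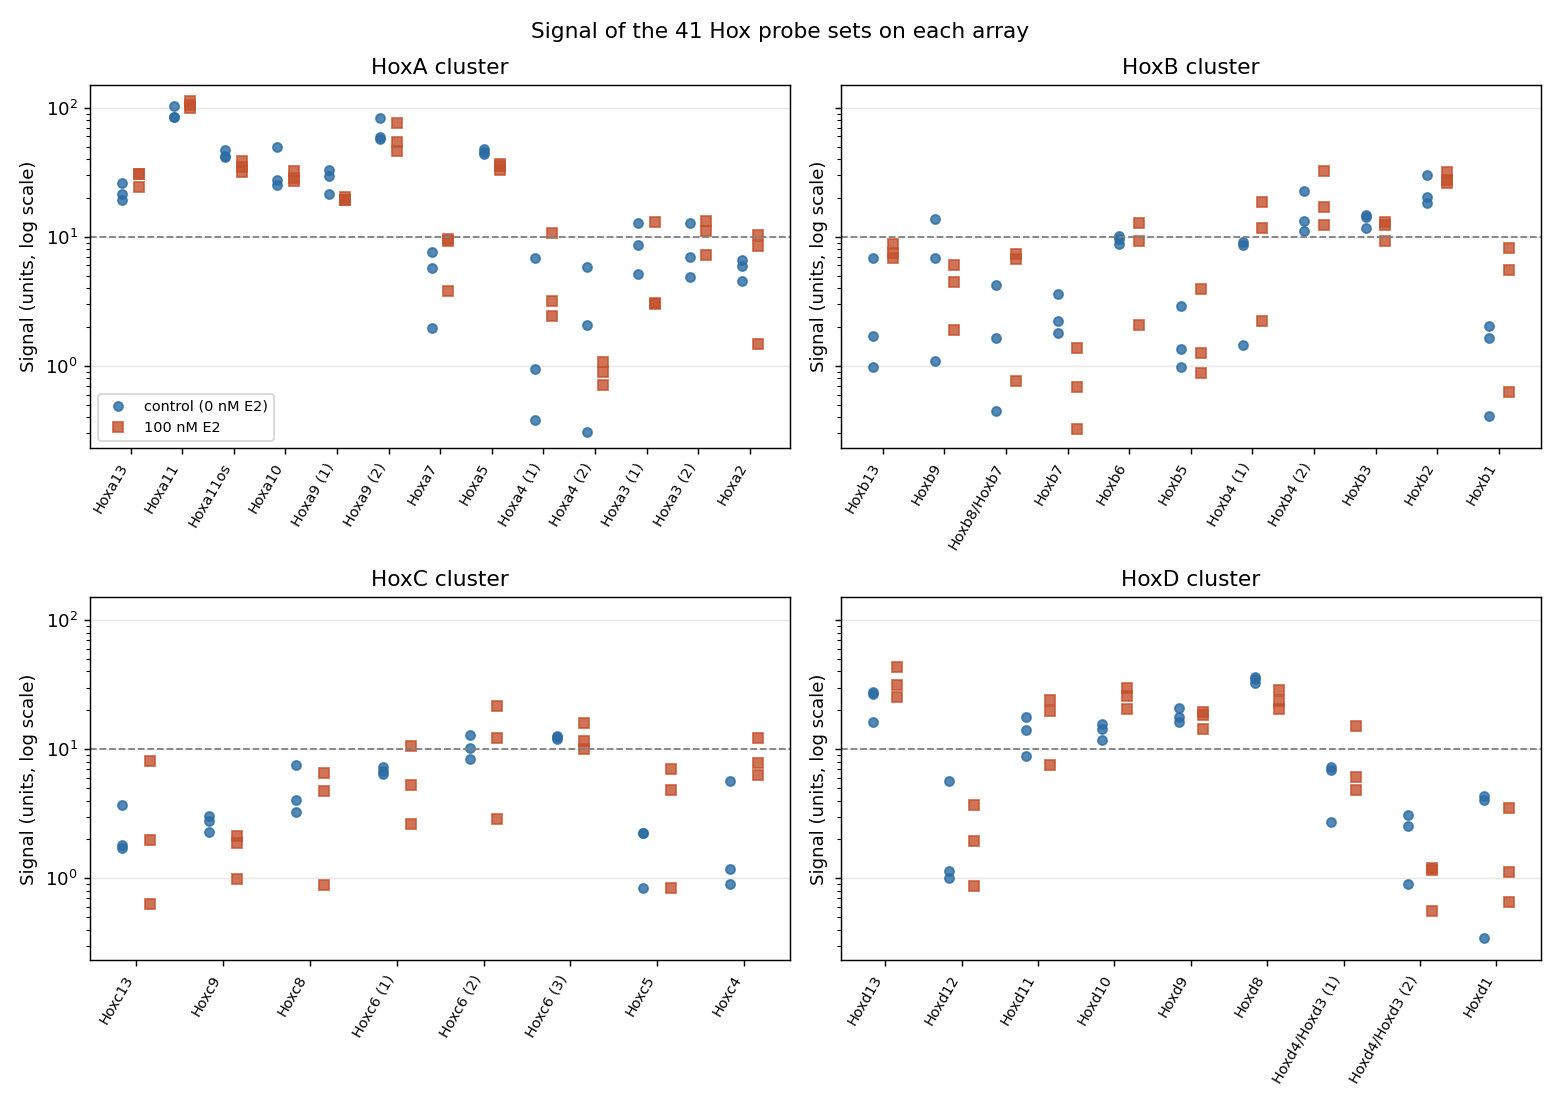
Signal of each Hox probe set on each of the 6 arrays after scaling to a common median (log axis), ordered by cluster and by paralog number, with control and E2 arrays as separate points. Numbers in parentheses tell apart probe sets of the same gene, and the dashed line marks 10 units. The posterior HoxA probe sets lie above the line on all arrays, and most of HoxB and HoxC lies below it.

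Hoxa11, which patterns the limb and the urogenital tract, had the highest Hox signal, at 84.5, 84.3 and 102 units in control cells and 99.1, 112 and 105 units in E2 cells. The 2 highest E2 arrays lay above all controls, but the lowest E2 array lay below the highest control. Its mean was 90.4 ± 10.4 units in control and 105 ± 6.38 in E2 cells (SD, n = 3 each), at percentile 83.6 of all probe sets on the arrays. The probe sets that followed it in signal were 1455626_at for Hoxa9 (percentile 76.2), then Hoxa5 (67.6), Hoxa11os (67.1), Hoxa10 (62.2) and Hoxd8 (60.9).

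The other 27 probe sets did not reach 10 units throughout. Of these, Hoxb3 and Hoxd11 came near, Hoxb3 with 14.7, 14.3 and 11.6 units in control and 13.1, 9.34 and 12.3 in E2 cells. Hoxd11 gave 8.90, 17.8 and 14.1 units in control and 19.7, 7.49 and 23.8 in E2 cells. Among anterior genes, Hoxa2, Hoxb1 and Hoxd1 had means below 10 units in both groups, as did the central genes Hoxa7, Hoxb5, Hoxb6, Hoxb7, Hoxc4, Hoxc5 and Hoxc8 and the posterior genes Hoxb9, Hoxb13, Hoxc9, Hoxc13 and Hoxd12. The 3 probe sets shared by neighbours (Hoxb8 with Hoxb7, and Hoxd4 with Hoxd3 by 2 probe sets) also had means below 10 units in both groups. Hoxb13, which acts in the prostate epithelium, gave 0.976, 1.71 and 6.84 units in control and 8.80, 7.45 and 6.90 in E2 cells. Hoxc4, singled out after its values were seen, gave 0.905, 1.18 and 5.65 units in control and 7.79, 12.1 and 6.36 in E2 cells. In both genes the E2 arrays lay above the controls, at signals too low to be tested here. Hoxb7 and Hoxc9, also untested, had all E2 arrays below all controls. Hoxb7 gave 1.80, 2.21 and 3.61 units in control and 1.37, 0.325 and 0.683 in E2 cells. Hoxc9 gave 3.01, 2.27 and 2.76 units in control and 2.13, 1.89 and 0.995 in E2 cells. The share of such probe sets among all those below the filter was not counted.

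No Hox gene passed the test for a difference between E2 and control cells. A probe set was tested if its mean as deposited reached 10 units in either group, which left 18 of the 41 Hox probe sets (8 in HoxA, 3 in HoxB, 2 in HoxC and 5 in HoxD) among 14223. Of the 18, 17 passed through both groups and 1, the Hoxa3 probe set 1452421_at, through the E2 group only. By limma with Benjamini-Hochberg adjustment over all 14223, 0 of 18 Hox probe sets had an adjusted p under 0.05, against 0.745% of all. Unadjusted p was under 0.05 for 2 of 18 (11.1%), Hoxd10 and Hoxd8, against 7.99% of all. The study's own threshold, 1.5-fold with an unadjusted p of 0.05 or less, took in 1 Hox probe set that was higher with E2, Hoxd10 (5.56%, against 2.06% of all), and 0 that were lower, against 1.88% of all. A positive difference was found for 9 Hox probe sets, among them Hoxa3, which passed through its E2 arrays only, and a negative one for 9. Over all probe sets tested 43.4% were positive. The Hox median log2 difference was -0.03, beside -0.04 over all probe sets tested. The standard errors of the Hox differences ran from 0.15 to 0.66 with a median of 0.27 on the log2 scale, against a median of 0.21 over all.

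**Figure D2:**
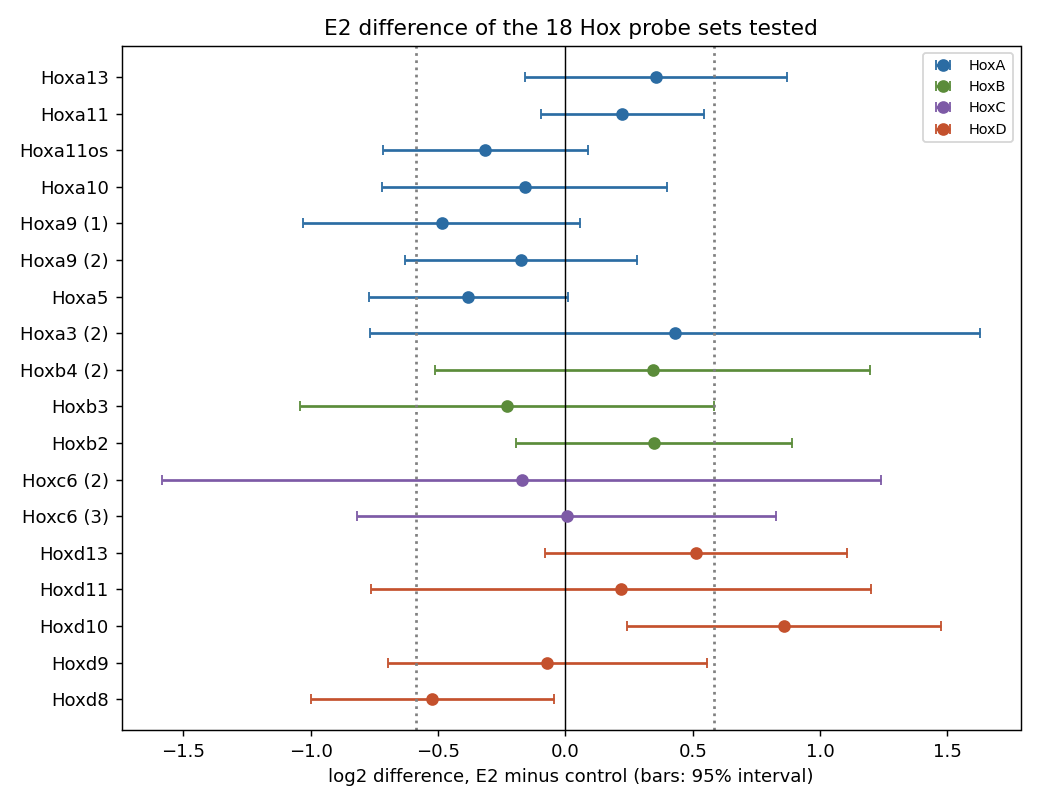
Log2 difference, E2 minus control, of the 18 Hox probe sets tested, by cluster and paralog number, with 95% confidence intervals from limma (3 arrays a group). The intervals of Hoxd10, above 0, and of Hoxd8, below 0, are those that exclude 0 before adjustment, and those of the other 16 cross it.

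Hoxd10, a posterior gene of the limb and the lower spinal cord, differed most. It gave 11.8, 15.6 and 14.4 units in control cells and 25.9, 20.5 and 29.6 in E2 cells. All E2 arrays lay above all controls. The mean was 13.9 ± 1.91 units in control and 25.4 ± 4.59 in E2 cells, a 1.81-fold difference (95% confidence interval 1.18 to 2.78) or 0.86 on the log2 scale (SE 0.29). The unadjusted limma p was 0.00988 and the adjusted p 0.371. Its difference was positive under all 16 alternatives run on it, between 0.46 and 1.03, and its unadjusted p was under 0.05 in 15 of them. Without E2 replicate 3 its p was 0.0566, and in that setting Hoxd13 took its place past the study's threshold, with a log2 difference of 0.69 and an unadjusted p of 0.0379.

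Hoxd8, the central gene next to Hoxd9, went the other way. Its signals were 35.2, 32.2 and 36.3 units in control and 20.5, 28.9 and 23.5 in E2 cells, with all E2 arrays below all controls. The mean was 34.6 ± 2.11 units in control and 24.3 ± 4.26 in E2 cells, a log2 difference of -0.52 (SE 0.22, 95% confidence interval -0.999 to -0.05). The unadjusted limma p was 0.0338 and the adjusted p 0.582. The sign held under all 16 alternatives, between -0.65 and -0.33, but the unadjusted p was under 0.05 in 10 of them. It was 0.223 on the values as deposited, and was 0.0761, 0.0818, 0.115 and 0.0705 without control replicate 1, control replicate 3, E2 replicate 1 and E2 replicate 3.

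Of the 18 tested, Hoxd10 was the 1 probe set whose groups did not overlap with E2 higher (5.56%, against 5.72% of all probe sets tested), and 4 had groups that did not overlap with E2 lower (22.2%, against 8.49% of all). These 4 were Hoxd8, Hoxa5, Hoxa11os and 1421579_at for Hoxa9. Quantile normalization gave the same 1 and 4, but on the values as deposited, without scaling, 0 of 18 had groups that did not overlap in either direction, against 3.39% of all higher and 1.72% of all lower.

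Hoxa5, a central gene of the lung and the axial skeleton, gave 43.8, 45.2 and 48.0 units in control and 33.2, 35.3 and 36.7 in E2 cells. Within each group the 3 arrays were close, and the gap between groups was wider than either spread. The means were 45.7 ± 2.15 and 35.1 ± 1.78 units, a log2 difference of -0.38 (SE 0.18, 95% confidence interval -0.77 to 0.01) with an unadjusted p of 0.0547 and an adjusted p of 0.632 by limma.

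Hoxa11os gave 47.1, 42.1 and 41.6 units in control and 31.8, 35.0 and 38.6 in E2 cells, so all E2 arrays were lower. Its log2 difference was -0.31 (SE 0.19, limma adjusted p = 0.725), while that of Hoxa11 on the opposite strand was 0.22 (SE 0.15, 95% confidence interval -0.10 to 0.55, limma adjusted p = 0.76). How well the arrays tell the 2 strands apart was not tested.

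Hoxa9, a posterior gene also used in blood progenitors, was read by 2 probe sets. The probe set 1421579_at gave 21.4, 32.9 and 29.8 units in control and 19.3, 19.4 and 20.5 in E2 cells, and 1455626_at gave 57.0, 82.6 and 59.5 units in control and 46.5, 76.6 and 54.7 in E2 cells. The groups did not overlap by the first but did by the other. Their log2 differences were -0.49 (SE 0.25, limma adjusted p = 0.679) and -0.18 (SE 0.21, limma adjusted p = 0.896), with the same sign. Replicate 2 of each group was the highest by 1455626_at, and the log2 difference by that probe set was -0.0076 without control replicate 2 and -0.016 without E2 replicate 1.

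The posterior genes of the genital tract had intervals that crossed 0. Hoxd13 gave 16.2, 27.6 and 26.5 units in control and 43.2, 31.2 and 25.5 in E2 cells. E2 replicate 3 lay below 2 of the controls and the other E2 arrays lay above all of them, with a log2 difference of 0.51 (SE 0.28, 95% confidence interval -0.08 to 1.11, limma adjusted p = 0.691). It was 0.27 without control replicate 1, 0.31 without E2 replicate 1 and 0.69 without E2 replicate 3. Hoxa13, which shares the paralog number of Hoxd13, gave 26.0, 21.5 and 19.3 units in control and 30.6, 24.4 and 30.5 in E2 cells. Its log2 difference was 0.36 (SE 0.24, limma adjusted p = 0.762). Hoxa10, which patterns the uterus and the vas deferens, gave 25.3, 49.8 and 27.7 units in control and 27.2, 28.5 and 32.2 in E2 cells. Control replicate 2 stood apart, and the log2 difference was -0.16 (SE 0.26, limma adjusted p = 0.931). Without that array it was 0.14. Hoxd11 (log2 difference 0.22, SE 0.46) and Hoxd9 (log2 difference -0.07, SE 0.29) differed by less than their errors. Hoxd9, which lies between Hoxd10 and Hoxd8, gave 20.7, 17.7 and 16.3 units in control and 18.4, 19.5 and 14.4 in E2 cells.

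In HoxB and HoxC the intervals of all 5 tested probe sets crossed 0. Hoxb2, a hindbrain gene, gave 29.9, 18.3 and 20.5 units in control and 27.7, 31.8 and 26.3 in E2 cells, with a log2 difference of 0.35 (SE 0.25, limma adjusted p = 0.79). Hoxb3 had a log2 difference of -0.23 (SE 0.38, limma adjusted p = 0.931). The probe set 1460379_at for Hoxb4, a gene of blood stem cells and the neck vertebrae, gave 11.1, 22.7 and 13.1 units in control and 17.0, 32.2 and 12.3 in E2 cells, with a log2 difference of 0.34 (SE 0.40, limma adjusted p = 0.889). The other Hoxb4 probe set gave 9.07, 1.46 and 8.64 units in control and 11.6, 18.5 and 2.21 in E2 cells and was not tested.

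Hoxc6, a gene of the upper trunk, was read by 3 probe sets. The probe set 1427454_at gave 12.6, 12.5 and 11.9 units in control and 10.1, 11.6 and 16.1 in E2 cells (log2 difference 0.01, SE 0.38). The probe set 1427362_x_at gave 12.9, 10.2 and 8.33 units in control and 2.86, 21.7 and 12.3 in E2 cells (log2 difference -0.17, SE 0.66). The third, 1427361_at, gave 6.43, 7.24 and 6.72 units in control and 5.23, 2.61 and 10.5 in E2 cells and was not tested. In each the spread of the E2 arrays spanned the controls.

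Hoxa3, a gene of the pharynx and the thymus, was near 10 units on 1452421_at, with 12.8, 7.03 and 4.91 units in control and 13.3, 11.1 and 7.29 in E2 cells (log2 difference 0.43, SE 0.56). On 1427433_s_at it gave 8.57, 5.15 and 12.9 units in control and 12.96, 3.01 and 3.05 in E2 cells and was not tested. The Hoxa4 probe sets stayed lower. The probe set 1420226_x_at gave 0.951, 0.382 and 6.84 units in control and 2.45, 10.7 and 3.16 in E2 cells. The other, 1427354_at, gave 5.84, 2.09 and 0.310 units in control and 0.713, 1.08 and 0.896 in E2 cells.

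By place in HoxA and HoxD, 5 of the 7 tested probe sets of paralogs 10 to 13 had a positive difference (all but Hoxa10 and the antisense Hoxa11os), and 5 of the 6 of paralogs 3 to 9 a negative one (all but Hoxa3). The 3 probe sets of paralog 9 were at -0.49, -0.18 and -0.07, of which Hoxd9, at -0.07, turned positive without control replicate 1 or E2 replicate 3. Both of paralog 13 were positive at 0.36 and 0.51. This division was drawn after the values were seen and is a description with no test. Without control replicate 1 or without E2 replicate 3 the counts were 4 of 7 and 4 of 6. Only Hoxd10 and Hoxd8 among these 13 had intervals that excluded 0. The classes defined at the start, over all 4 clusters, did not show this division. Of the 10 tested posterior probe sets (paralogs 9 to 13), 5 were higher and 5 lower. Of the 5 central ones 2 were higher and 3 lower, and of the 3 anterior ones 2 and 1. In HoxB, left out of the division, Hoxb2 (0.35) and Hoxb4 (0.34) were positive and Hoxb3 (-0.23) negative.

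Because the genes of a pair were measured on the same array, the difference between them does not depend on a scaling factor for that array. The pairs were chosen after their values were seen, for differences of opposite sign except in Hoxd9 minus Hoxd8, where both were negative. The values therefore restate that choice and carry no test. The log2 signal of Hoxd10 minus that of Hoxd8 was -1.57, -1.05 and -1.34 on the control arrays and 0.34, -0.49 and 0.33 on the E2 arrays, a mean of -1.32 ± 0.26 in control and 0.06 ± 0.48 in E2 cells. Hoxd10 minus Hoxd9 had a mean of -0.39 ± 0.36 in control and 0.54 ± 0.49 in E2 cells, and Hoxd9 minus Hoxd8 of -0.93 ± 0.20 and -0.48 ± 0.29. Within HoxA, Hoxa11 minus Hoxa5 was 0.98 ± 0.10 in control and 1.58 ± 0.08 in E2 cells, with Hoxa11 minus Hoxa11os at 1.05 ± 0.23 and 1.59 ± 0.13.

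**Figure D3:**
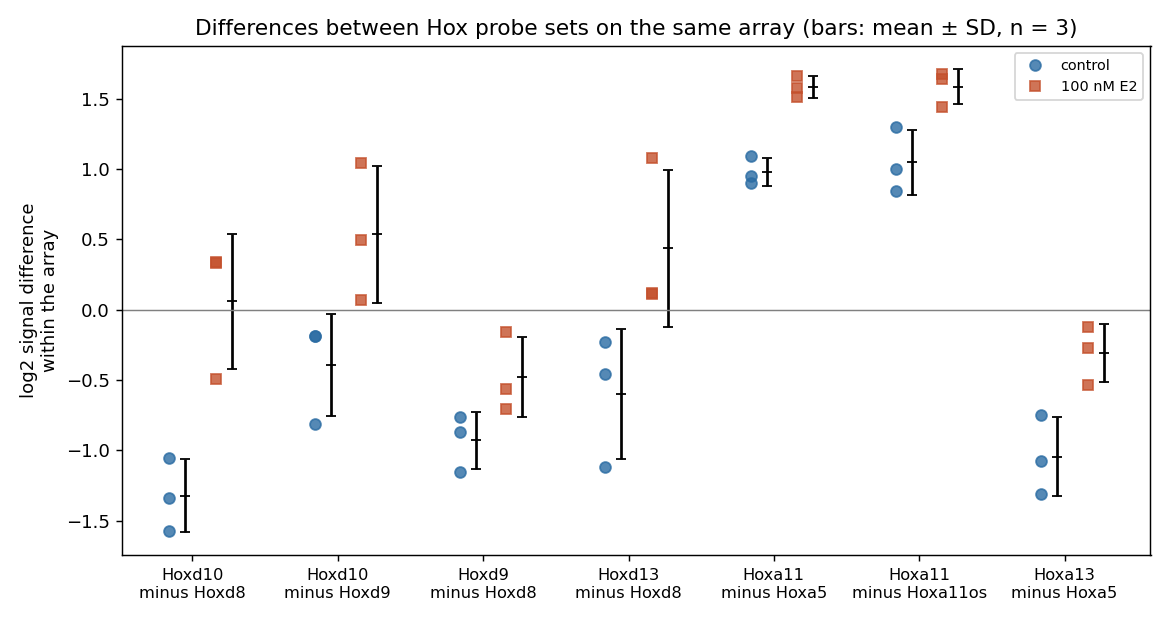
Difference in log2 signal between members of a Hox pair on the same array, with 1 point per array and a bar for the mean of each group (3 control, 3 E2). Hoxd10 minus Hoxd8 lies between -1.57 and -1.05 on control arrays and between -0.49 and 0.34 on E2 arrays.

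No tested gene of the TALE cofactors, Polycomb genes, trithorax genes and other Hox regulators passed the test, and 1 of the posterior urogenital transcription factors outside the clusters did. This gene, Osr2, an odd-skipped zinc finger factor of the palate and limb mesenchyme, rose. It gave 12.3, 22.7 and 9.23 units in control and 34.8, 35.6 and 51.3 in E2 cells. All E2 arrays lay above all controls, with means of 14.7 ± 7.04 and 40.6 ± 9.26 units and a log2 difference of 1.54 (SE 0.32, 95% confidence interval 0.85 to 2.23, limma adjusted p = 0.0427). The call ended under quantile normalization (adjusted p = 0.0545) and with any array other than control replicate 2 left out, where the adjusted p was 0.142 without control replicate 1, 0.192 without control replicate 3, and 0.107, 0.0771 and 0.211 without E2 replicates 1, 2 and 3. Among the posterior urogenital transcription factors, 10 of 23 genes were tested, 1 passed higher and 0 lower, and the median log2 difference was -0.0002. Over all probe sets tested by limma, 0.745% passed and 7.99% had an unadjusted p under 0.05. At those shares short lists hold few calls or none, so 0 called in a list says little about its genes. The next genes of that list were Tcf21 (log2 difference -0.48, adjusted p = 0.634), Tbx3 (0.37, adjusted p = 0.695) and Foxf1 (0.57, adjusted p = 0.723).

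None of the 10 tested genes of the 12 in the TALE cofactor list passed, and 1 of them, Meis2, had an unadjusted p under 0.05. Besides Meis, Pbx and Pknox genes, the list held Tgif1, Tgif2 and Hmbox1, so its counts and median are not those of the Hox cofactors alone. Meis2, which binds DNA with Hox proteins, gave 203, 165 and 171 units in control and 124, 136 and 131 in E2 cells. All E2 arrays lay below all controls, with means of 180 ± 19.9 and 130 ± 6.08 units and a log2 difference of -0.46 (SE 0.14, 95% confidence interval -0.75 to -0.17). The unadjusted limma p was 0.00443 and the adjusted p 0.239. Meis3 (log2 difference 0.50, adjusted p = 0.733), Tgif2 (0.37, adjusted p = 0.74) and Pknox2 (-0.34, adjusted p = 0.79) came next. The median of the list was 0.09.

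The Polycomb genes had 20 of 26 tested and 0 called, with 0 at an unadjusted p under 0.05 and a median log2 difference of -0.06. Phc1, a subunit of the Polycomb complex that compacts chromatin, had a mean of 30.9 units in E2 cells and of 41 units in control cells (log2 difference -0.42, adjusted p = 0.636). Suz12 and Jarid2, subunits of the complex that methylates histone H3, had log2 differences of -0.45 and -0.51 (adjusted p = 0.691 for both), and Cbx6, which reads that mark, of -0.33 (adjusted p = 0.665). The trithorax genes and demethylases had 9 of 14 tested, 0 called, 0 at an unadjusted p under 0.05 and a median of -0.02. Kdm6a, which removes the Polycomb mark, had a log2 difference of -0.67 (adjusted p = 0.715), Psip1 of -0.38 (adjusted p = 0.79), Kmt2c of -0.32 (adjusted p = 0.861) and Ash2l of -0.15 (adjusted p = 0.877).

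Of 23 other Hox regulators and genes beside the clusters, 12 were tested and 0 called, and the median was -0.10. Cbx1, which lies beside HoxB, had means of 57.0 in control and 42.3 units in E2 cells, a log2 difference of -0.45 with an unadjusted limma p of 0.0469 and an adjusted p of 0.624. Skap2, a neighbour of HoxA, had a log2 difference of -0.32 (adjusted p = 0.628), with all E2 arrays below all controls. Atf2, near HoxD, differed by -0.31 (adjusted p = 0.679). Gdf11, a signal that sets the trunk to tail transition, differed by 0.90 (adjusted p = 0.724), with means of 8.22 in control and 13.6 units in E2 cells. It passed the filter through the E2 group only, with deposited means of 7.76 in control and 14.3 units in E2 cells.

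**Figure D4:**
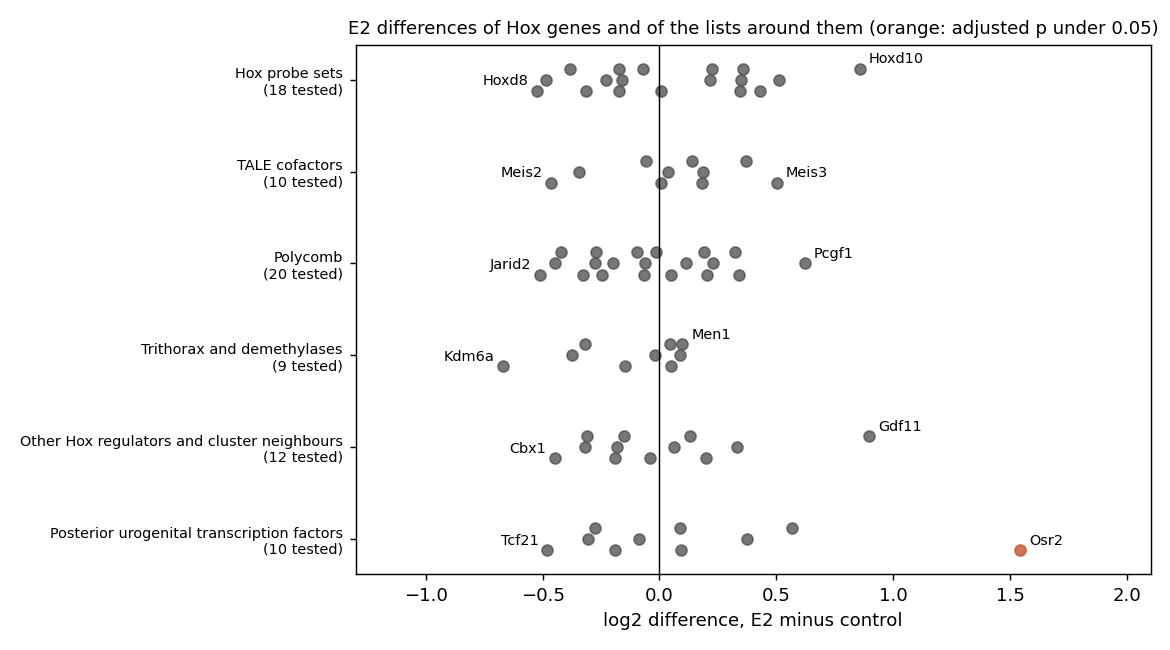
Points give the log2 difference, E2 minus control, of the tested Hox probe sets and of the tested genes in the 5 lists around them. These lists hold cofactors, regulators and urogenital transcription factors. Osr2, at 1.54, is the gene that passed an adjusted p of 0.05, and the medians of the lists lie between -0.10 and 0.09.

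These are bulk cultures, so fewer cells of a type and less RNA per cell cannot be told apart. All 10 mesenchymal markers with a probe set (among them Vim, Col1a1 and Pdgfra) reached 10 units on all 6 arrays, and 0 were called. The summed signal of the 12 epithelial markers with a probe set was 62.4 to 103 units in control and 142 to 153 in E2 cells. Only 1 of the 12, Krt18, reached 10 units on all 6 arrays. Its means were 39.1 units in control and 72.0 in E2 cells, a large part of each sum. The 4 tested had a median log2 difference of 1.10. Of these, Krt19, Krt8 and Krt14 passed the filter through the E2 group only, so the filter itself favoured a positive median. Krt18 rose 1.83-fold (limma adjusted p = 0.0416), and Krt19 (2.60-fold, adjusted p = 0.504), Krt8 (2.36-fold, adjusted p = 0.691) and Krt14 (1.94-fold, adjusted p = 0.755) also had all E2 arrays above all controls. The other 8, among them Epcam, Cdh1, Trp63 and Shh, had means below 10 units in both groups. Krt7, also among these 8 and untested, went the other way, with all E2 arrays below all controls. Its means were 6.95 units in control and 1.39 in E2 cells. The 10 macrophage and leukocyte markers summed to 277 to 444 units in control and 246 to 275 in E2 cells, with 0 called. Of the 9 tested, 3 were lower at an unadjusted limma p under 0.05, against 7.99% of all probe sets in either direction. They were C1qb (0.42-fold, adjusted p = 0.063), C1qa (0.56-fold, adjusted p = 0.375) and Tyrobp (0.71-fold, adjusted p = 0.575). In each of them all E2 arrays lay below all controls. The other tested markers of this list were also lower, with groups that overlapped. Markers of endothelium (2 of 7 tested), smooth muscle (5 of 5), neural crest and glia (0 tested) and skeletal muscle (0 tested) had 0 called. The part of these cells in the Hox differences was not tested. An 18S ribosomal control probe set was at 281 units on control replicate 3 and 288 on E2 replicate 2 as deposited, against 22.8 to 44.7 on the other 4 arrays. Without both arrays the log2 difference of Hoxd10 was 1.03 (limma adjusted p = 0.258) and that of Hoxd8 -0.62 (limma adjusted p = 0.45).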

How the data were processed

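RNA of 6 samples was profiled on Affymetrix mouse expression arrays, and the deposited values are linear intensities per probe set, made by the authors. The study's methods name Gene Expression Console and the GeneChip Operating Software as their source and state neither the settings nor a scaling, and array medians ran from 13.72 to 21.81 units (ratio 1.59). Correlations between arrays were 0.934 to 0.96 within groups and 0.922 to 0.95 between groups. Groups were taken from the sample titles. Here the 64 control probe sets of 22690 were left out and each array was scaled to the geometric mean of the medians. Of the remainder, 20380 probe sets had 1 gene symbol, 691 several and 1555 none listed. Where the deposited mean of either group reached 10 units, the study's level, a probe set was tested on the log2 scale with limma 3.58.1 in R 4.3.3 (lmFit, eBayes with a variance trend, two-sided), adjusted by Benjamini-Hochberg over all 14223. Signals printed are scaled unless said otherwise. Genes with several probe sets outside the Hox clusters were read by the brightest.

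The members, gene lists, marker lists and naming rule were chosen with earlier results of these data known. Hox genes were named in full for an unadjusted p under 0.05, groups that did not overlap, the 3 highest signals of a cluster, several probe sets, or as Hoxb13. In other lists the call or up to 4 genes with the smallest p were named. Alternatives changed the scaling, floor, pseudocount, filter, variance model, replicate block and arrays used.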

Additional observations from a re-analysis of the deposited data

How the results depend on the processing

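The count of Hox probe sets with an adjusted p under 0.05 was 0 higher and 0 lower under every alternative run. Of Hox probe sets higher past 1.5-fold and an unadjusted p of 0.05, there was 1, and it was 0 with log2(value + 16), 2 without a filter and 0 with a filter at 100 units, where 1 Hox probe set was left. Of those lower, there were 0, with 0 to 1 when single arrays were left out (1 without control replicate 1, Hoxa9, and 1 without E2 replicate 2, Hoxd8) and 1 with both high-18S arrays left out (Hoxd8). The median log2 difference of the Hox probe sets, -0.03, ran from -0.12 (without E2 replicate 3) to 0.0912 (without E2 replicate 1) with single arrays left out, -0.16 with both high-18S arrays left out and 0.22 with the filter at 100 units. The number of Hox probe sets at the measured level on all 6 arrays, 14, was 6 at 20 units, 13 on the values as deposited and 16 at 5 units, a setting chosen after seeing the data.

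Over the 5 lists around the Hox genes 1 gene was called, Osr2 of the urogenital transcription factors. There were 0 under quantile normalization, without a filter, with eBayes without a trend and without moderation. With the replicate block and with both high-18S arrays left out there were also 0, and 0 to 1 with single arrays left out. The filter at 100 units gave 0 too, but it left Osr2 untested, whose deposited means were 15.3 in control and 43.4 units in E2 cells. The log2 difference of Osr2 was 1.54 without a filter (adjusted p = 0.0698), with eBayes without a trend (adjusted p = 0.262), without moderation (adjusted p = 0.55) and with the replicate block (adjusted p = 0.0673). The cause was not tested.

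Nothing in the sources used here says that the replicate numbers pair the arrays. Deviations from the group means correlated at 0.0078, -0.053 and -0.0583 over probe sets for replicates 1 to 3. Between arrays of unlike number they correlated at -0.00971 to 0.0742. These values cannot show whether arrays of the same number shared a culture. With the replicate block the unadjusted p was 0.0168 for Hoxd10 and 0.0508 for Hoxd8, and 0 Hox probe sets were called. Signs turned in some alternatives for Hoxa10, Hoxb4, Hoxd9, Hoxd11 and both tested Hoxc6 probe sets. With 3 arrays a group, the Hox differences had standard errors of 0.15 to 0.66 on the log2 scale, and 23 of the 41 Hox probe sets had no test.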
